A study of Mus musculus with 12 samples.

Results

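The insulin-like growth factor (IGF) axis was followed through 8 genes, the ligand Igf1, the receptors Igf1r and Igf2r and the binding proteins Igfbp2, Igfbp3, Igfbp4, Igfbp5 and Igfbp7. They were taken by name from the 55487 genes of a raw count table made from RNA of CD11b-positive cells of the mouse cerebral cortex. All 8 were among the 15425 genes with enough counts to be tested. The libraries come from 12 male mice, 3 in each of 4 groups, and each library is another mouse. WT mice were of the strain C57BL/6J, which is also the background of the App NL-G-F mice, whose own App gene carries the Swedish, Iberian and Arctic mutations as a knock-in. From the age of 9 months, mice of both strains received either PBS (veh) or 10 mg/kg of rh Bri2 BRICHOS R221E, a recombinant human chaperone domain, into a vein. The 24 injections were given 2 per week over 12 weeks, and the mice were killed after another 4 weeks without treatment. The groups are called WT-veh, WT-BRICHOS, App-veh and App-BRICHOS below, and App mice are the App NL-G-F mice. Cells were released with papain and selected with magnetic beads against CD11b, which microglia, macrophages and neutrophils all carry on their surface, so the selection does not separate them.

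IGF-1 is a secreted growth factor that binds the IGF-1 receptor, a tyrosine kinase which signals through IRS adaptors to PI3K and AKT and through RAS to MAPK. The IGF-2 receptor carries lysosomal enzymes and takes up IGF-2, and the secreted IGF binding proteins hold the ligands and set how much of them can reach a receptor. In the brain, IGF-1 is made by neurons, vessels and microglia, and microglia around amyloid plaques are known to express it.

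Library totals were between 12433402 and 17889654 counts, so that 3 counts, taken as the smallest detectable level, corresponded to between 0.168 and 0.241 CPM (counts scaled to a library of 1000000), a limit that covers counting error only. The 10 microglia markers summed to between 23940 and 30530 CPM in every library, and none of them was at 0. Markers of other cells were also present. The 8 oligodendrocyte markers summed to between 9708 and 17000 CPM in WT-veh libraries and between 4166 and 15720 CPM in WT-BRICHOS libraries. In App libraries they summed to between 3250 and 6235 CPM. The 10 choroid plexus markers summed to 5699 CPM in WT-veh replicate 3 and to between 5127 and 9314 CPM in the 3 WT-BRICHOS libraries, against 950.8 to 3004 CPM in the other libraries. The 10 astrocyte markers summed to between 546.7 and 936.8 CPM in WT libraries, to 4885, 4373 and 1598 CPM in App-veh mice and to 2096, 806.0 and 1430 CPM in BRICHOS-treated ones. Since the RNA of all selected cells was extracted together, fewer cells of a type and less RNA per cell cannot be told apart in any value below.

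The comparison of the strains under veh asks which parts of the axis differ in mice with amyloid. Of the 8 genes, 6 passed an adjusted p-value of 0.05 in edgeR's quasi-likelihood test, against 37.0% of all genes tested, of which 20.1% were higher and 16.9% lower in App mice. Igf1 and Igfbp5 rose by far the most, Igf1r rose slightly, and Igfbp3, Igfbp4 and Igfbp7 fell. Igf2r and Igfbp2 did not pass. The same 6 genes had no overlap between the groups, which 50.9% of all genes also had. The median difference of the 8 genes was -0.03 on the log2 scale and that of all genes tested was -0.02.

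Igf1, the ligand (ENSMUSG00000020053, GRCm38, chr10:87858265-87937042, plus strand), had levels of 12.8, 11.7 and 15.2 CPM in WT-veh mice. In App-veh mice it had 252.3, 254.1 and 256.5 CPM. WT-BRICHOS mice had 13.5, 18.1 and 16.5 CPM, and App-BRICHOS mice 252.7, 307.8 and 286.0 CPM. Every App library was thus far above every WT library, and within each strain the ranges of the treatments overlapped. Between the strains under veh, Igf1 was 19.3-fold higher in App mice, a log2 difference of 4.27 (SE 0.12, adjusted p = 1.47e-09). An antisense gene, Igf1os, lies within the span of Igf1 but shares no exon with it in the GENCODE annotation.

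**Figure D1:**
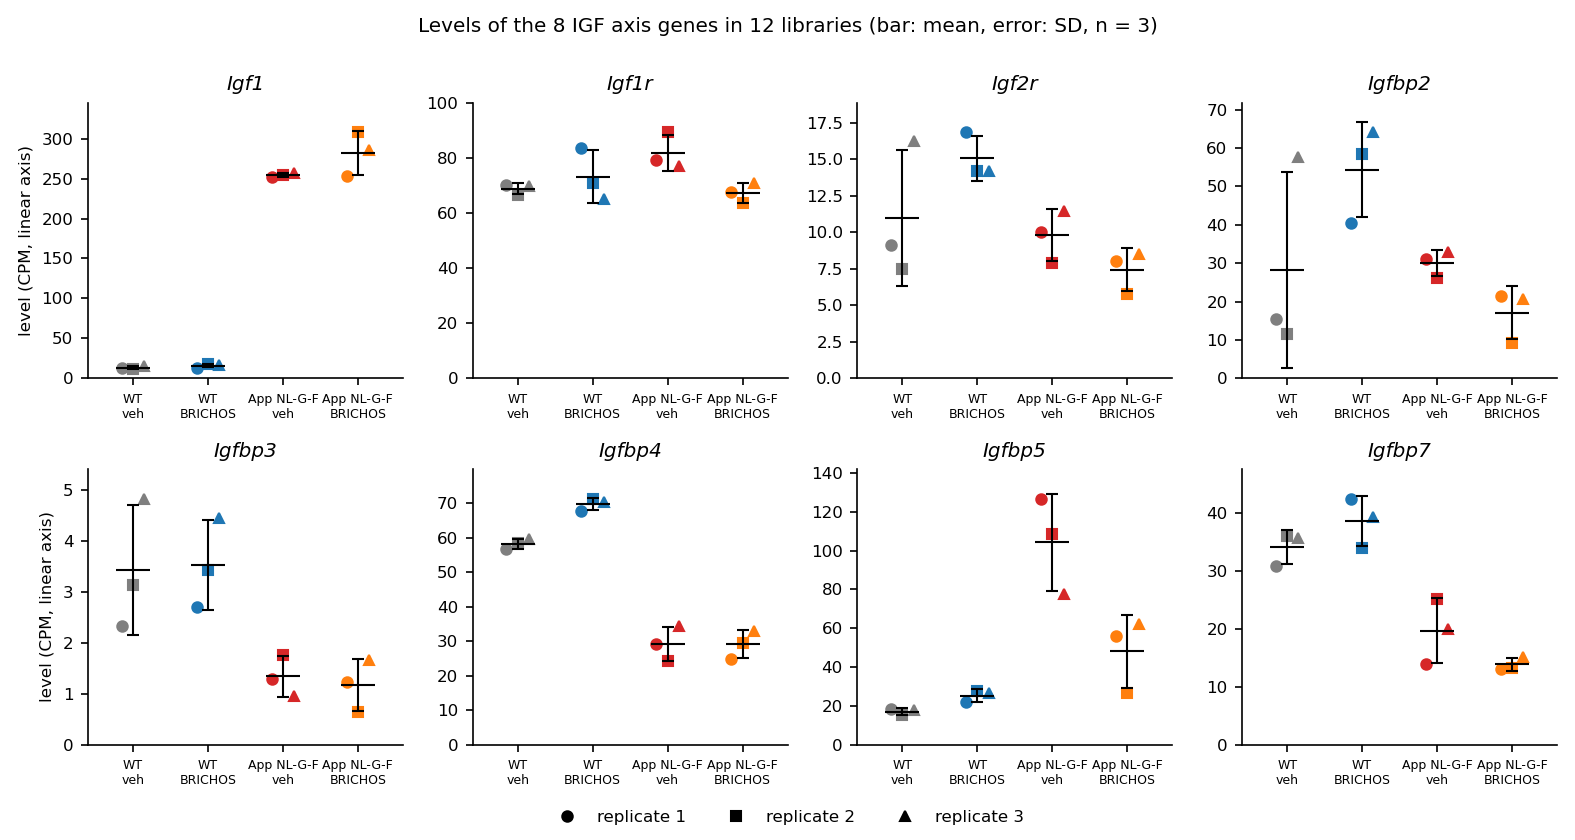
Levels in CPM (linear axes from 0) of the 8 genes in the 12 libraries, with a panel per gene, a symbol per replicate, and the mean and SD of each group of 3. Igf1 sits between 252.3 and 307.8 CPM in App libraries against 11.7 to 18.1 CPM in WT libraries, and Igfbp5 is highest in the App-veh libraries, between 77.5 and 126.8 CPM.

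Igf1r, the signalling receptor of IGF-1 (ENSMUSG00000005533, chr7:67952827-68233668, plus strand), varied little. Its levels were 70.2, 66.5 and 70.0 CPM in WT-veh and 83.8, 71.1 and 65.2 CPM in WT-BRICHOS mice. In App mice they were 79.5, 89.4 and 77.1 CPM under veh and 67.8, 63.7 and 70.9 CPM under BRICHOS. The App-veh libraries lay above the WT-veh and the App-BRICHOS libraries without overlap, while the WT-BRICHOS libraries spread across both. Under veh, Igf1r was 1.19-fold higher in App mice, a log2 difference of 0.25 (SE 0.09, adjusted p = 0.0446). This call stood close to the threshold. It was lost without a filter on low counts (adjusted p = 0.0709) and when a single library was left out, except WT-BRICHOS replicate 1 or 3 or App-veh replicate 3, with adjusted p-values from 0.0152 to 0.172 over all libraries left out in turn.

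Igf2r, the receptor that clears IGF-2 (ENSMUSG00000023830, chr17:12682406-12769664, minus strand), had 9.17, 7.52 and 16.3 CPM in WT-veh, 16.9, 14.2 and 14.2 CPM in WT-BRICHOS, 10.0, 7.93 and 11.5 CPM in App-veh and 8.06, 5.75 and 8.53 CPM in App-BRICHOS mice. WT-veh replicate 3 stood with the WT-BRICHOS libraries and apart from the other 2 of its group, as its choroid plexus markers did. The strain difference under veh was -0.16 on the log2 scale (95% interval -0.73 to 0.41, adjusted p = 0.659). Without that library it was 0.23 (adjusted p = 0.417).

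Igfbp5 and Igfbp2 are neighbours on chromosome 1 that are read towards each other, Igfbp2 (ENSMUSG00000039323) at chr1:72824503-72852474 on the plus strand and Igfbp5 (ENSMUSG00000026185) at chr1:72857932-72874884 on the minus strand, with 5457 bases between their ends. With all 12 libraries, Igfbp5 passed between the strains under veh and its neighbour did not. This contrast rests on 1 library, since Igfbp2 also passed without WT-veh replicate 3 (edgeR, adjusted p = 0.0220). The sequences just before their starts are shown, from RefSeq's promoter windows of GRCm38.p6 up to the first base of any annotated exon. They lie at chr1:72824230-72824479 for Igfbp2 and chr1:72874885-72875115 for Igfbp5, 5′ to 3′ along each gene. Capitals mark matches to the searched motifs.
Igfbp2: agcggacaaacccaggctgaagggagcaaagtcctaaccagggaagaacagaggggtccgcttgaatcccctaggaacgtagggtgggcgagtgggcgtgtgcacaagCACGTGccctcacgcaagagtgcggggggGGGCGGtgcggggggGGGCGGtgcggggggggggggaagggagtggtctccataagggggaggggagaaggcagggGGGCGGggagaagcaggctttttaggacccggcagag
Igfbp5: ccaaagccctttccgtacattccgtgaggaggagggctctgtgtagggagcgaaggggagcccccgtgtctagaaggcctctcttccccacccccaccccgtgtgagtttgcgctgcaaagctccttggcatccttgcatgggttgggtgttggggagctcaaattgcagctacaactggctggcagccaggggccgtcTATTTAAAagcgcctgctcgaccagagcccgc
Both strands were searched for GGGCGG (the GC box), CACGTG (the E box), TATAAA (the TATA box), TATTTAAA, CCAAT and GAGGAAGT (an ETS core), none of which contains another. The Igfbp2 window held 3 GC boxes and 1 E box, and the Igfbp5 window held 1 TATTTAAA and none of the others. RefSeq lists another window for Igfbp2, chr1:72825137-72825436, which held none of these motifs and is not shown. Of 32817 RefSeq windows of 250 bases, 32.7% held a GC box, 6.02% an E box and 1.71% a TATTTAAA. The GC content was 67.2% for Igfbp2 and 60.6% for Igfbp5. These matches are letters in a window, and no binding was measured.

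Igfbp5, a secreted IGF binding protein that also binds extracellular matrix, had 18.3, 15.2 and 17.9 CPM in WT-veh and 21.8, 27.6 and 26.7 CPM in WT-BRICHOS mice. In App mice it had 126.8, 108.6 and 77.5 CPM under veh and 56.0, 26.8 and 62.0 CPM under BRICHOS. The App-veh libraries were the highest and the WT-veh libraries the lowest of all, and App-BRICHOS replicate 2 lay within the range of WT-BRICHOS mice. Under veh, Igfbp5 was 6.11-fold higher in App than in WT mice, a log2 difference of 2.61 (SE 0.28, adjusted p = 2.42e-05). All 10 astrocyte markers rose in the same comparison, with a median log2 difference of 2.36, Gfap by 4.14 and the water channel gene Aqp4 by 2.54. The 7 fibroblast markers tested had a median of -0.565, with 1 passing as lower and 0 as higher. All 8 listed fibroblast markers summed to between 4.41 and 31.2 CPM in the 12 libraries. Over the 12 libraries, the deviations of Igfbp5 from its group means correlated with those of the astrocyte markers at r = 0.81 and with those of the fibroblast markers at r = 0.81, and in both groups of App mice the library with the lowest astrocyte sum also had the lowest Igfbp5. These points share depth and dissection, and the part of astrocyte RNA in the Igfbp5 difference was not tested.

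Igfbp2, which binds both IGFs and is abundant in choroid plexus, had 15.5, 11.7 and 57.6 CPM in WT-veh, 40.4, 58.5 and 64.1 CPM in WT-BRICHOS, 31.1, 26.2 and 32.9 CPM in App-veh and 21.5, 9.20 and 20.6 CPM in App-BRICHOS mice. As with Igf2r, WT-veh replicate 3 stood with the WT-BRICHOS libraries. The strain difference under veh was 0.10 on the log2 scale, with a 95% interval from -1.001 to 1.198 (adjusted p = 0.893). It rested on that library, since Igfbp2 was higher in App mice by 1.15 without it (adjusted p = 0.0220). The deviations of Igfbp2 and of Igf2r from their group means correlated with those of the choroid plexus markers at r = 0.86 and r = 0.85 over 12 libraries, and with each other at r = 0.86. The part of choroid plexus RNA in these values was not tested.

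Igfbp4, a soluble inhibitor of IGF action (ENSMUSG00000017493, chr11:99041244-99054392, plus strand), had 56.6, 58.3 and 59.6 CPM in WT-veh, 67.8, 71.3 and 70.3 CPM in WT-BRICHOS, 29.1, 24.3 and 34.3 CPM in App-veh and 25.0, 29.5 and 33.1 CPM in App-BRICHOS mice. All WT libraries were above all App libraries. Under veh, it was 1.99-fold lower in App mice, with a log2 difference of -0.99 (SE 0.12, adjusted p = 5.28e-05). Of the 8 border macrophage markers, 6 also fell, among them the mannose receptor gene Mrc1 by 1.15, with a median of -1.04 on the log2 scale, and their sum was 418.1 to 677.2 CPM in WT and 185.5 to 257.5 CPM in App libraries. Of the 10 microglia markers, 8 fell and 1 rose, with a median of -0.50, while all 10 markers of disease-associated microglia rose, with a median of 4.56. The deviations of Igfbp4 within groups correlated with those of the microglia markers at r = 0.66, of the disease-associated microglia markers at r = 0.63 and of the border macrophage markers at r = 0.51 (n = 12), and the part of these cells in its fall was not tested.

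Igfbp7, a vascular matrix protein with low affinity for IGFs (ENSMUSG00000036256, chr5:77349240-77408041, minus strand), had 30.9, 36.1 and 35.7 CPM in WT-veh, 42.5, 34.0 and 39.3 CPM in WT-BRICHOS, 13.9, 25.1 and 20.1 CPM in App-veh and 13.2, 13.3 and 15.2 CPM in App-BRICHOS mice. No App library reached a WT library. Under veh, it was 1.74-fold lower in App mice, with a log2 difference of -0.80 (SE 0.17, adjusted p = 0.00376). Of the 10 endothelial markers, 8 fell and 1 rose in this comparison, with a median of -0.80 on the log2 scale. Cldn5 had -0.81 and Pecam1 -1.19. The 8 that fell and the 1 that rose, Slc2a1, had no overlap between the groups. The sums of all 10 did overlap (973.2 to 1070 CPM in WT-veh against 807.3 to 1061 CPM in App-veh libraries). These sums include Slc2a1, with 201.6 to 221.7 against 275.5 to 342.9 CPM, and Flt1, with 221.0 to 256.6 against 242.2 to 316.5 CPM. The deviations of Igfbp7 correlated with those of the mural markers at r = 0.76 and of the endothelial markers at r = 0.71 (n = 12), and their part in its fall was not tested. Under veh, 2 of the 10 mural markers fell and 1, Cspg4, rose by 3.31 on the log2 scale. Cspg4 made up 80.0 to 114.7 CPM of the mural sums of 255.4 to 299.3 CPM in App-veh libraries. An exon of Igfbp7 overlaps an exon of Polr2b on the opposite strand, which had at most 1061 counts, and the strand setting of the counting is not given in the sources used here, so reads of both genes cannot be told apart there.

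Igfbp3, the main carrier of IGFs in serum (ENSMUSG00000020427, chr11:7206086-7213923, minus strand), had the lowest mean level per kilobase of exon of the 8 genes in every group. It had 2.33, 3.14 and 4.84 CPM in WT-veh, 2.71, 3.43 and 4.46 CPM in WT-BRICHOS, 1.29, 1.77 and 0.96 CPM in App-veh and 1.23, 0.64 and 1.66 CPM in App-BRICHOS mice. The strains did not overlap. Under veh, it was 2.53-fold lower in App mice, with a log2 difference of -1.34 (SE 0.38, adjusted p = 0.0162). The call was lost without WT-veh replicate 3 (-1.02, adjusted p = 0.0688), without App-veh replicate 1 (-1.31, adjusted p = 0.0518) or without App-veh replicate 3 (-1.16, adjusted p = 0.0554). Its deviations correlated most with those of the fibroblast markers, at r = 0.88 over 12 libraries.

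Per kilobase of annotated exon, the order of the genes differed between the strains. In WT-veh mice the mean levels were 28.3 CPM per kb for Igfbp7, 15.3 for Igfbp2, 13.2 for Igfbp4, 4.10 for Igf1r, 2.85 for Igfbp5, 1.34 for Igf1, 1.18 for Igf2r and 1.10 for Igfbp3. In App-veh mice Igf1 came first with 25.7 CPM per kb, followed by Igfbp5 with 17.4 and by Igfbp7 and Igfbp2 with 16.3 each. The ligand was therefore among the lowest of the 8 genes in WT and the highest in App mice. The level of Igf1 per kb divided by the sum of Igfbp2, Igfbp3, Igfbp4 and Igfbp5 per kb was 0.0517, 0.0514 and 0.0312 in WT-veh and 0.0328, 0.0341 and 0.0295 in WT-BRICHOS libraries. It was 0.567, 0.670 and 0.668 in App-veh and 0.944, 1.90 and 0.979 in App-BRICHOS libraries. The library with 1.90, App-BRICHOS replicate 2, had 31.1 CPM per kb of Igf1 over a sum of 16.3. It also had the lowest astrocyte (806.0 CPM) and choroid plexus (950.8 CPM) marker sums of the App libraries. The part of these cells in the ratio was not tested. This ratio was chosen after the levels were seen and is given as a description, of RNA and not of protein.

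**Figure D2:**
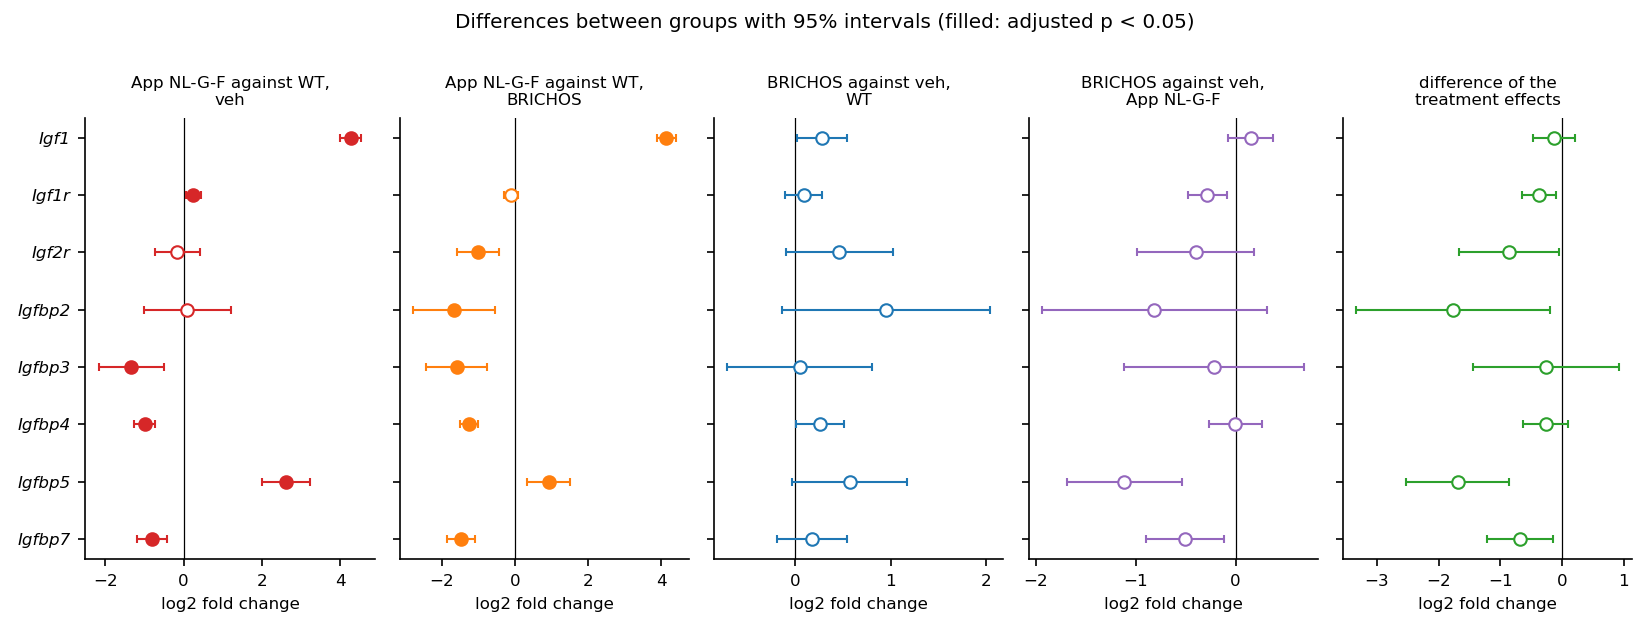
Log2 fold changes of the 8 genes with 95% intervals from edgeR in 5 comparisons, a panel each with its own axis, with filled points for an adjusted p-value under 0.05. Filled points stand in the panels that compare the strains, 6 under veh and 7 under BRICHOS, and none stands in the panels of the treatment or of the difference of the treatment effects.

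The comparison of rh Bri2 BRICHOS R221E with veh in App mice asks whether the axis moves with treatment once pathology is established. None of the 8 genes passed the adjusted threshold in edgeR, where 0.00648% of all genes tested did. At an unadjusted p-value of 0.05, 3 of the 8 genes were lower after BRICHOS, Igfbp5, Igf1r and Igfbp7, against 7.67% of all genes that were lower and 10.8% in either direction. Igf1r, Igfbp2 and Igfbp5 were lower without overlap between the groups, as 7.09% of all genes were. This comparison shares the App-veh libraries with the comparison of the strains, so its differences are not independent of those above.

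Igfbp5 had the largest difference, with a mean of 48.3 CPM after BRICHOS against 104.3 CPM after veh, which is 2.17-fold lower. The log2 difference was -1.11 (SE 0.26, 95% interval -1.69 to -0.54, adjusted p = 0.291). DESeq2's Wald test gave an adjusted p of 0.006 and edgeR without a filter on low counts gave 0.0383, while the adjusted p-values with a library left out ran from 0.0518 to 0.701. All 10 astrocyte markers were lower at an unadjusted p-value of 0.05 in the same comparison, with a median of -1.40 on the log2 scale. None passed the adjusted threshold, and the ranges of the groups overlapped for all 10. The astrocyte sum was 1598 CPM in App-veh replicate 3 and 2096 CPM in App-BRICHOS replicate 1, where Igfbp5 had 77.5 and 56.0 CPM. The 7 fibroblast markers tested had a median of 0.002, and 2 of them were lower at the unadjusted threshold. The part of either cell type in the Igfbp5 difference was not tested.

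Igf1r had a log2 difference of -0.28 (95% interval -0.48 to -0.09, adjusted p = 0.304), and its mean of 67.5 CPM after BRICHOS lay next to that of WT-veh mice, 68.9 CPM. Igfbp7 had -0.50 (interval -0.89 to -0.11, adjusted p = 0.347). Of the 10 endothelial markers, 8 were also lower at an unadjusted p-value of 0.05, with a median of -0.64. The deviations of Igf1r correlated with those of the endothelial markers at r = 0.72 and of the mural markers at r = 0.67 (n = 12), close to the values of Igfbp7 above. Between the strains under veh, Igf1r differed by 0.25 (edgeR, adjusted p = 0.0446, and 0.0152 to 0.172 with a library left out). Of the 10 endothelial markers, 8 fell and 1 rose there. The part of vascular cells in the Igf1r or Igfbp7 difference after BRICHOS was not tested. For Igfbp2 the difference was -0.81 (interval -1.94 to 0.31, adjusted p = 0.629) and for Igf2r -0.40 (interval -0.98 to 0.19, adjusted p = 0.654). Igf1 differed by 0.15 (interval -0.07 to 0.37, adjusted p = 0.661), and its strain difference was 19.3-fold under veh and 17.6-fold under BRICHOS. Igfbp4 had the same mean in both groups, 29.2 CPM (interval of the log2 difference -0.26 to 0.26). Igfbp3 differed by -0.21 (interval -1.11 to 0.69).

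The same comparison in WT mice asks for effects that are not tied to amyloid. None of the 8 genes passed the adjusted threshold, nor did any gene tested (0.0%). Igf1 and Igfbp4 were higher after BRICHOS at an unadjusted p-value of 0.05, as 6.55% of all genes were (11.4% in either direction), and Igfbp4 and Igfbp5 were higher without overlap, as 8.36% of all genes were. With a library left out, 0 to 3 of the 8 genes were under the unadjusted threshold. Igf1 had means of 16.04 and 13.24 CPM, a log2 difference of 0.28 (interval 0.02 to 0.55, adjusted p = 0.406). Igfbp4 had 69.8 and 58.2 CPM, a difference of 0.26 (interval 0.01 to 0.51, adjusted p = 0.424). Of the 8 border macrophage markers, 6 were higher at the same unadjusted threshold, with a median of 0.47 on the log2 scale, and their part was not tested. Igfbp5 had 25.4 and 17.1 CPM, a difference of 0.57 (interval -0.03 to 1.18, adjusted p = 0.463). Of the 7 fibroblast markers tested, 5 were higher at the unadjusted threshold, with a median of 1.26, and 6 of the 7 ependymal markers tested were, with a median of 1.06. The astrocyte markers had a median of 0.40, and none of the 10 was under that threshold. The deviations of Igfbp5 correlated with those of the ependymal markers at r = 0.65, below the value for the fibroblast markers, and the part of these cells was not tested.

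Igfbp2 had the largest difference of the 8 genes in WT mice, 0.95 on the log2 scale (interval -0.14 to 2.04, adjusted p = 0.504), and Igf2r had 0.46 (interval -0.10 to 1.03, adjusted p = 0.536). Without WT-veh replicate 3 these were 2.001 and 0.852, and neither passed the adjusted threshold. The median log2 difference of the 10 choroid plexus markers was 1.13 in the same comparison. Igf1r, Igfbp7 and Igfbp3 differed by 0.09, 0.17 and 0.05, with overlapping ranges.

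The treatment effects of the strains were compared directly as the effect in App mice minus the effect in WT mice. None of the 8 genes passed the adjusted threshold, where 0.00648% of all genes did. At an unadjusted p-value of 0.05, 5 genes had a lower effect in App mice, against 9.54% of all genes with a lower effect and 14.8% in either direction. They were Igfbp5 with -1.69 on the log2 scale (SE 0.38, interval -2.52 to -0.85, adjusted p = 0.156), Igfbp2 with -1.77 (interval -3.33 to -0.20), Igf2r with -0.86, Igfbp7 with -0.68 and Igf1r with -0.37. Without WT-veh replicate 3, Igfbp2 had -2.81 and passed (adjusted p = 0.0365). Igfbp5 passed with DESeq2 (adjusted p = 0.00216) and without a filter on low counts (adjusted p = 0.0323). Igf1 had -0.13 (interval -0.48 to 0.21) and Igfbp4 -0.27 (interval -0.63 to 0.10). Of the 10 astrocyte markers, 9 had a lower effect in App mice at the unadjusted threshold, with a median of -1.77, and 6 of the 10 choroid plexus markers did, with a median of -1.83.

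Between the strains under BRICHOS, 7 of the 8 genes passed the adjusted threshold in edgeR, against 42.5% of all genes tested, 20.8% higher and 21.8% lower in App mice. Igf1 and Igfbp5 rose, and Igf2r, Igfbp2, Igfbp3, Igfbp4 and Igfbp7 fell. Igf1 was 17.6-fold higher in App mice, a log2 difference of 4.13 (adjusted p = 1.13e-09). Igfbp5 was 1.90-fold higher, a difference of 0.93 (interval 0.34 to 1.51, adjusted p = 0.0159), and here the ranges overlapped. This call was lost without WT-BRICHOS replicate 1, App-BRICHOS replicate 1 or App-BRICHOS replicate 3, with adjusted p-values of 0.0534, 0.0516 and 0.0675.

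Igfbp2 was 3.18-fold lower under BRICHOS, a difference of -1.67 (interval -2.79 to -0.55, adjusted p = 0.0211), and Igf2r was 2.03-fold lower, a difference of -1.02 (adjusted p = 0.00873). All 10 choroid plexus markers fell in this comparison, with a median of -2.40, and their part was not tested. The call of Igfbp2 was lost without WT-BRICHOS replicate 2 (adjusted p = 0.0521), WT-BRICHOS replicate 3 (adjusted p = 0.0549) or App-BRICHOS replicate 2 (adjusted p = 0.0761). Igfbp3 was 3.03-fold, Igfbp7 2.78-fold and Igfbp4 2.39-fold lower in App mice. Igf1r differed by -0.12 (interval -0.32 to 0.07, adjusted p = 0.299). The strain difference of Igf2r, which was not found under veh, is not shown to depend on the treatment, since the direct test of that difference had an adjusted p of 0.316.

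The rest of the pathway was followed through 74 other genes, of which 61 were tested. Under veh, 27 of them passed between the strains, 14 higher and 13 lower in App mice, which is 44.3% of those tested against 37.0% of all genes, 20.1% higher and 16.9% lower. Their median was -0.05 on the log2 scale. By role, 7 of 11 genes of PI3K and AKT passed, 3 higher and 4 lower, as did 5 of 11 genes of the TORC1 branch, 3 of 9 of the RAS and MAPK branch, all higher, and 3 of 6 FOXO and GSK3 genes, all lower.

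Of the 5 passing genes with the largest differences, 4 were higher in App mice. Ghr, the growth hormone receptor, had 11.5 against 2.66 CPM, a log2 difference of 2.11 (adjusted p = 2.85e-05). Socs2, which restrains growth hormone signalling, had a difference of 1.45. Htra1, a secreted protease that cleaves IGF binding proteins, had 1.45, with overlapping ranges and 29.9 CPM in App-veh replicate 3 against 86.9 and 90.2 CPM in the others. Igfbp6, which prefers IGF-2, had 1.09 on a mean of 1.54 against 0.732 CPM, with 22 to 23 counts against 8 to 15. Under BRICHOS its strain difference was -0.82 (edgeR, adjusted p = 0.0481), lower in App mice without overlap. The direct test of the change between treatments had an adjusted p of 0.156. Gab1, an adaptor between receptors and PI3K, was lower, with 50.7 against 95.6 CPM and a difference of -0.92 (adjusted p = 0.000223).

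**Figure D3:**
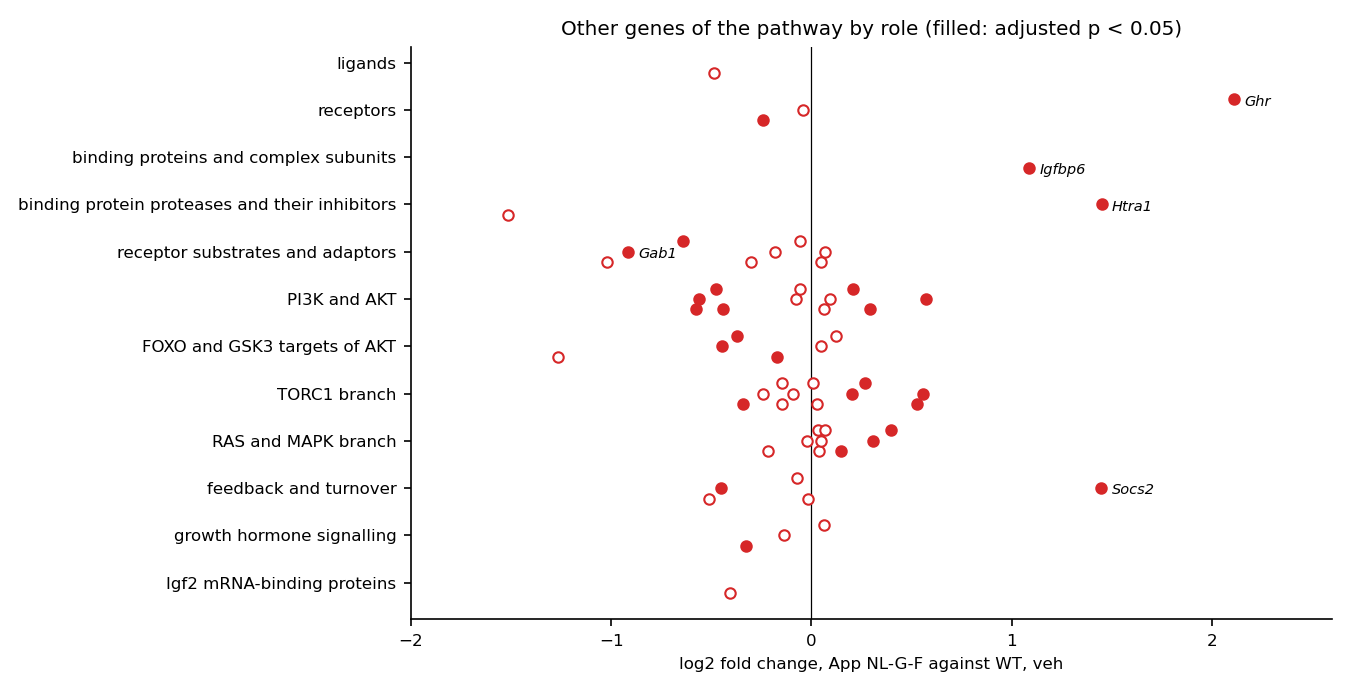
Log2 fold changes of the 61 tested other genes of the pathway between App-veh and WT mice, a row per role, with filled points for an adjusted p-value under 0.05 and names for filled points beyond 0.9. Ghr at 2.11 stands farthest from 0, and the PI3K and AKT row has 3 filled points above 0 and 4 below.

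Insr, the insulin receptor, fell by 0.24 on the log2 scale under veh (62.1 against 73.4 CPM, adjusted p = 0.0137), and Foxo3, a transcription factor held in the cytoplasm by AKT, fell by 0.17 (adjusted p = 0.0294). Igf2, the second ligand, had means of 1.85 and 2.63 CPM and overlapping ranges (adjusted p = 0.558). Irs2, an adaptor of both receptors, had 63.4 and 65.8 CPM (adjusted p = 0.876). Ins1 and Ins2, the insulin genes, had too few counts to be tested.

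None of these 61 genes passed for the treatment in either strain, and 8 in App and 12 in WT mice were under an unadjusted p-value of 0.05, against 10.8% and 11.4% of all genes. Between the strains under BRICHOS 35 passed, 16 higher and 19 lower, against 42.5% of all genes. The largest were Stc1, an inhibitor of the protease that releases IGFs from IGFBP4, with a difference of -3.28 on at most 5 counts a library in the App-BRICHOS mice, Igf2 with -2.37 (0.881 against 4.57 CPM, adjusted p = 0.0112), the adaptor Grb10 with -2.31, Socs2 with 1.47 and Ghr with 1.46. Igf2 counts in App-BRICHOS mice were 21, 6 and 12.

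The genes whose levels were most like those of each member were taken over the 12 libraries among 13670 genes with a mean of at least 1 CPM, as a description. For Igf1 they were Rab7b, Axl and Apoe, each with r = 0.999, which mostly reflects the strain difference that they share. In deviations from group means the nearest gene to Igf1 was Dok2 (r = 0.97), and the 10 markers of disease-associated microglia, all of which rose between the strains under veh, had r = 0.80. For Igf2r the nearest was Prlr, the prolactin receptor, with r = 0.97 for levels and r = 0.94 for deviations. For Igfbp2 the nearest were Agbl2 and Me3, each with r = 0.97 for levels.

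For Igfbp7 the nearest in level were Tm4sf1, Cd93 and Egfl7, each with r = 0.98, the latter pair known from endothelial cells. For Igfbp4 the nearest was Cd209a (r = 0.98), a lectin of myeloid cells, and in deviations Mlec (r = 0.96). For Igfbp5 they were Dhrs1 (r = 0.98), Ahcyl1 and Mfap3l for levels and Ss18l1 (r = 0.99) for deviations. Igf1r had the weakest partners in level, Mthfd2l with r = 0.86, and Igfbp3 had Mettl21a with r = 0.96.

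**Figure D4:**
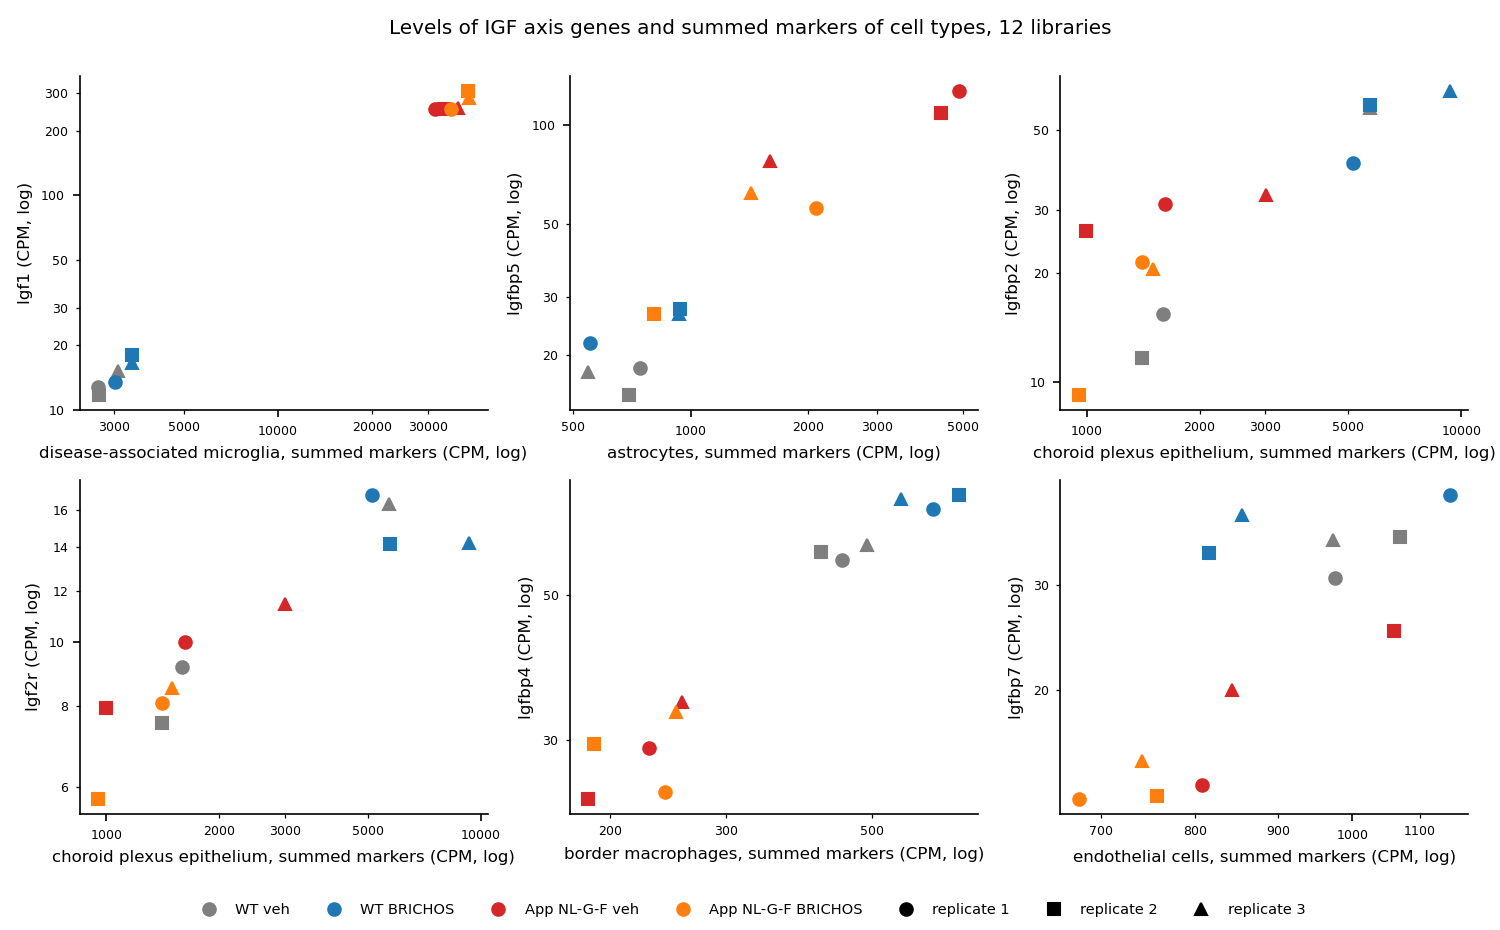
Level of 6 members against the summed level of the markers of a cell type in the 12 libraries, both in CPM on log axes, with a colour per group and a symbol per replicate. Igfbp5 is lowest in each App group where the astrocyte sum is lowest (1598 CPM under veh and 806.0 CPM under BRICHOS), and Igfbp2 and Igf2r of WT-veh replicate 3 sit with the WT-BRICHOS libraries.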

How the data were processed

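RNA-sequencing of CD11b-positive cortical cells was analysed for 12 libraries. The deposited values are raw counts of reads per gene, which the authors obtained with STAR on GRCm38 and featureCounts 1.5.1, and they were not normalized. The strand setting is not given in the sources used here. Ensembl identifiers were matched to symbols with GENCODE, 55141 of 55487. Genes passing edgeR's filterByExpr (minimum count 10) were kept, and all libraries entered a single quasi-likelihood fit with TMM factors and group means (R 4.3.3, edgeR 4.0.16). P-values were adjusted by Benjamini and Hochberg over all 15425 genes. Levels are CPM with TMM factors, and log2 CPM used a prior count of 2. Deviations over the 12 libraries were taken after subtracting the 4 group means, so they are not 12 independent points. The cell types named with them are among those with the highest correlation for that gene. Alternatives were DESeq2 1.42.0, other filters, a fold cutoff, the compared groups alone, a replicate block and leaving out each library. The code was tested on simulated data. The text names all 8 members, 4 fixed genes (Igf2, Insr, Irs2 and Foxo3), the 5 called pathway genes with the largest change per comparison and the 3 genes most alike. Members and lists were chosen with earlier results of these data known. Motifs in RefSeq promoter windows, matched for 8 of 8 members, were searched by letters. No protein sequences were used here. A gene of the pathway is not reported here, and the counts of the list leave it out.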

Additional observations from a re-analysis of the deposited data

Results flagged for a closer look

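The 8 members and the other named pathway genes were checked for treatment effects of opposite direction in the strains, without overlap in either, and only Igfbp5 had them. It was lower in all 3 App-BRICHOS than in all 3 App-veh mice and higher in all 3 WT-BRICHOS than in all 3 WT-veh mice. Of all genes tested, 7.09% were lower without overlap in App mice and 8.36% higher in WT mice, and the share with both was not counted. In WT mice Igfbp5 differed by 0.57 (interval -0.03 to 1.18, edgeR adjusted p = 0.463). The difference of the effects was -1.69 on the log2 scale, and its direct test gave an adjusted p of 0.156 in edgeR's quasi-likelihood fit, with a range from 0.00216 to 0.342 over the alternatives. In App mice the astrocyte markers were lower after BRICHOS than after veh, with a median of -1.40 on the log2 scale and no overlap for 0 of the 10. In WT mice the fibroblast markers were higher after BRICHOS than after veh, with a median of 1.26 and no overlap for 6 of the 7 tested. The part of either cell type was not tested. Groups of 3 libraries are too small for a test of single outlying samples.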

How the results depend on the processing

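Between the strains, 6 of the 8 genes passed under veh. A required log2 fold change beyond 1 left 3, the other alternatives gave 5 to 6 and leaving out a library gave 4 to 6. Under BRICHOS 7 passed, with 6 to 7 when a library was left out. For the treatment in App mice 0 passed, 1 with DESeq2's Wald test and 1 without a filter on low counts, in both cases Igfbp5, and 0 with any library left out. For the treatment in WT mice 0 passed in every alternative run. For the difference of the treatment effects 0 passed, 1 with DESeq2 and 1 without a filter, and 0 to 1 with a library left out. The cause was not tested.

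Over all genes, the calls for the treatment in App mice numbered 1 in the reported fit, 124 with DESeq2, 25 without a filter, 0 with the compared groups alone and 0 to 162 with a library left out, 162 being without App-veh replicate 3. In WT mice they were 0, 84 with DESeq2, 12 without a filter and 0 to 5 with a library left out, and for the difference of the effects 1, 249, 107 and 0 to 88. The fold cutoff left 1601 of 5710 calls between the strains under veh and 2454 of 6560 under BRICHOS.

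Changes of direction were seen for differences near 0. For the treatment in App mice, Igfbp4 had 0.0145 with DESeq2's size factors, 0.0164 with DESeq2, 0.0004 with the compared groups alone and 0.001 without a filter, and -0.12 to 0.13 with a library left out, while Igfbp3 had -0.53 to 0.10. Under veh, leaving out a library gave -0.38 to 0.23 for Igf2r and -0.28 to 1.15 for Igfbp2. For the treatment in WT mice it gave -0.0197 to 0.167 for Igf1r and -0.17 to 0.36 for Igfbp3, and for the difference of the effects -0.576 to 0.0491 for Igfbp3.

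Equally numbered libraries come from different mice. Their deviations from group means correlated at 0.06 to 0.227 between the WT groups, at 0.056 to 0.174 between the veh groups, at 0.01 to 0.178 between the App groups and at -0.015 to 0.218 between the BRICHOS groups. Between groups that differ in both strain and treatment they were 0.136 to 0.264 for WT-veh with App-BRICHOS and -0.114 to 0.098 for WT-BRICHOS with App-veh. Differently numbered libraries had -0.25 to 0.132 between the WT groups, -0.2 to 0.112 between the veh groups and -0.181 to 0.125 between the App groups. They had -0.252 to 0.199 between the BRICHOS groups, -0.185 to 0.04 for WT-veh with App-BRICHOS and -0.131 to 0.171 for WT-BRICHOS with App-veh. In each comparison made, at least 1 of the 3 values for equal numbers was under 0.1, and the numbers were not taken as pairs. With the replicate block, 5 genes passed between the strains under veh (Igf1r had an adjusted p of 0.0509), 7 under BRICHOS and 0 in the other comparisons, and over all genes 5991, 6822, 0 and 0 for the treatments and 1 for the difference. With 3 mice a group, the width of the intervals limits what the treatment comparisons can show, and Igfbp3, at 0.64 to 4.84 CPM, is limited by depth.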
